A study of Mus musculus with 4 samples.

Results

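Unnamed and non-coding gene models were examined across the H3K9ac libraries of leukaemic mouse bone marrow. They are the rows of the deposited gene table called by a predicted-gene number (Gm followed by digits), by a RIKEN cDNA clone (ending in Rik), by a genomic clone (AC or RP followed by digits), or as a microRNA, small nucleolar RNA, small Cajal body RNA or snoRNA host gene (Mir, Snor, Scarna, Snhg). These 1196 rows of 9615 carried 1187 distinct names and comprised 392 Gm models, 694 RIKEN models, 39 microRNA genes, 22 small nucleolar RNA genes, 3 Snhg host genes, 3 small Cajal body RNA genes, 32 AC clones and 11 RP clones. A row was set apart when a named gene with at most 100000 bp between them had identical values in both libraries. This held for 377 rows, of which 292 overlapped that named gene. For 7 of them, such as Snord104 with SNORA76, the only such neighbours were small RNA models spelled in capitals, which the naming rule leaves out although they are non-coding too. The other 819 stood alone, and 95 of these shared their values only with other unnamed models, in 45 sets.

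Chromatin immunoprecipitation with an antibody against histone H3 acetylated at lysine 9 was followed by sequencing. Both mice groups carried Gfi1b(fl/fl), floxed alleles of the gene for a transcriptional repressor that acts in the erythroid and megakaryocytic lineages. Both also carried Nup98(tg), the NUP98/HOXD13 leukaemia transgene. The groups differed in MxCre, which was absent in the group called WT (MxCre(wt)) and present in the group called tg (MxCre(tg)). Mx-Cre is driven by an interferon-inducible promoter and is active in many cell types. The sources used here name no inducing agent and give neither the age and sex nor the number of the animals behind a library. There was 1 H3K9ac library per group, and the rabbit IgG library of each group was not analysed here. Per the labels, red cells were lysed before fixation. Without replicates no difference was tested and no p-value can be given, so "higher" and "lower" speak of these 2 libraries alone. In a mixed tissue, fewer cells of a type and less signal per cell cannot be told apart.

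H3K9ac is deposited around the start sites of genes that are being transcribed and at active enhancers. Long non-coding RNAs and the long primary transcripts of microRNAs are made by RNA polymerase II from such promoters, whereas many small nucleolar RNAs are cut from introns of genes for ribosomal proteins and so lie beside the host's promoter. A mature microRNA recognises its target messages mainly through its seed, bases 2 to 8 from the 5′ end. In marrow, miR-144 and miR-451a are known from red cell precursors and miR-223 from granulocytes, while miR-142 and miR-21a are found in many blood cells.

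All 39 microRNA rows matched a RefSeq microRNA gene. Of their 37 distinct names, 32 could be matched to mature sequences, 48 in all. The sequences below belong to matched genes with large differences between the libraries and to the abundant or leukaemia-related ones set beside them. Mir1907, the microRNA gene with the lowest log2 ratio, is among the names without a matched mature sequence. The sequences are written 5′ to 3′ as RNA, as RefSeq gives them (GRCm38.p6), with the seed in capitals.
miR-144-3p (chr11:78073047-78073066, plus strand): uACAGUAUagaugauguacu
miR-144-5p (chr11:78073010-78073032, plus strand): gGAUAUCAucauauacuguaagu
miR-451a (chr11:78073186-78073207, plus strand): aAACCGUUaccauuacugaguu
miR-223-3p (chrX:96242884-96242905, plus strand): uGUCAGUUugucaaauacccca
miR-223-5p (chrX:96242842-96242864, plus strand): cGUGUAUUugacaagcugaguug
miR-142a-3p (chr11:87756903-87756925, plus strand): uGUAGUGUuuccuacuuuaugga
miR-142a-5p (chr11:87756867-87756887, plus strand): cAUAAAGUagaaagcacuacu
miR-21a-5p (chr11:86584120-86584141, minus strand): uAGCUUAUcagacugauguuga
miR-196b-5p (chr6:52230129-52230150, minus strand): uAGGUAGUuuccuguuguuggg
miR-5130 (chr14:102982608-102982631, minus strand): cUGGAGCGcgcgggcgaggcaggc
miR-5135 (chr12:76533143-76533166, minus strand): aGGUCUAGguggcaagggcguccu
The 48 mature sequences had 47 distinct seeds. The shared one, GGGCCUG, occurs in products of Mir2861 and Mir3091. None of the mature sequences printed above had a seed in common with a product of another matched gene.

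The deposited values are log2 means over a gene's probes, which are stretches of sequence, and the sources used here do not give their positions. Where a gene has several probes, counts are listed in ascending order within each library, and probes could not be matched between the libraries. Whole reads were recovered from them for 1179 of the 1196 models. A value of 1 read equals 3.23 scaled reads in the WT library and 6.11 in the tg library. If the values are scaled to 1000000, these steps correspond to totals of 309649 and 163712 reads. Whether such totals cover the whole library or only reads in probes could not be told from the values. All folds below are ratios of scaled reads with a 95% interval that covers counting error only (molecules were not tagged, so reads are not independent). Of 24 listed erythroid marker genes 16 had a row, and 15 of these were beyond 2-fold higher in tg, against 16.5% of all features. The summed level of those with recovered reads was 849 scaled reads in WT and 3592 in tg. Hbb-b1, Epor, Rhag and Alas2 had 0 reads in WT. Genes with 1 probe had at least 9 reads over both libraries, so such a gene without WT reads could only appear as higher. Of 15 listed neutrophil markers 6 had a row, and 5 were beyond 2-fold lower, against 15.8% of all features. Their summed level was 346 in WT and 85.5 in tg. Of 7 monocyte and macrophage markers 3 were lower and 1 higher (1863 and 415). Of 5 megakaryocyte markers 2 were lower and 2 higher beyond 2-fold, and of 3 T and NK cell markers 1 was higher. The marrow label was thus met by markers of several blood lineages in both libraries, and the part of cell makeup in the values below was not tested. Uty, on the Y chromosome, had 28 WT reads and 0 tg reads.

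At a 2-fold threshold on the log2 values, 213 of 1196 unnamed models were higher in tg and 205 were lower. These are 17.8% and 17.1%, against 16.5% and 15.8% of all features. The median log2 ratio, tg minus WT, was -0.0045 over the unnamed models and 0.045 over all features. Their median level, the mean of both libraries, was 62.2 scaled reads, beside 62.1 for all features. The counting interval lay above 1 for 159 models (13.5% of those with reads) and below 1 for 166 (14.1%), against 12.8% and 12.7% of all features with recovered reads. As a whole the unnamed models were therefore split between higher and lower in shares close to those of the table.

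**Figure D1:**
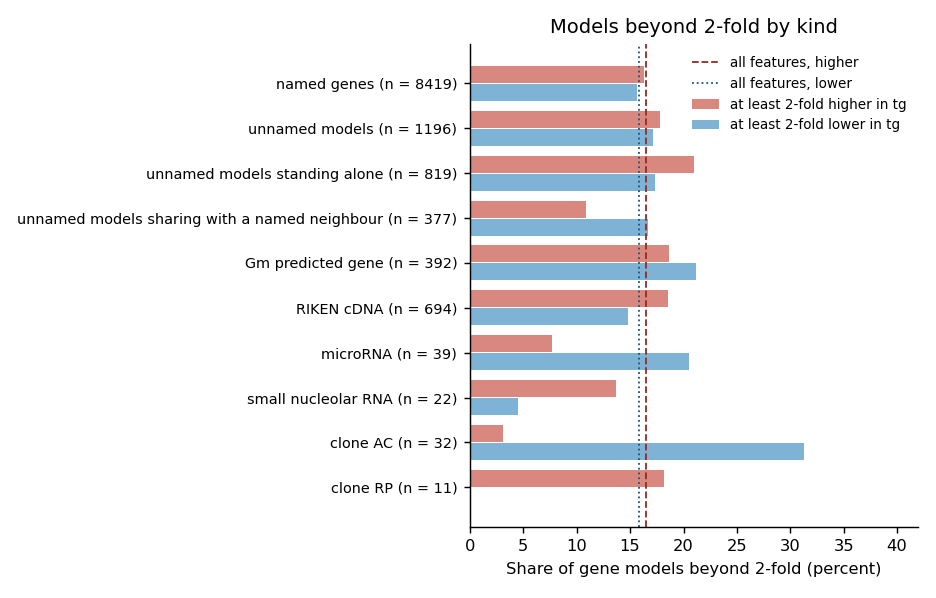
Share of gene models (x axis, percent) beyond 2-fold higher (red bars) or lower (blue bars) in tg, for named genes, the unnamed models and their kinds, with the number of models in each label. The dashed and dotted lines mark all features (16.5% and 15.8%), stand-alone models reach 21% on the higher side and models with a named gene's values 10.9%, and the longest blue bar is that of the AC clones (10 of 32).

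Models that stood alone and models with a named gene's values differed in level and in spread. The 819 stand-alone models had a median level of 56.6 scaled reads, 172 were higher (21%) and 142 lower (17.3%), and the standard deviation of their log2 ratios was 1.47. The 377 models with the values of a named gene had a median level of 86.0, with 41 higher (10.9%), 63 lower (16.7%) and a standard deviation of 1.05. Across models, Spearman's rho between the WT and tg values was 0.46 for stand-alone and 0.73 for sharing models, as a description of genes that are not independent replicates. Level moved with these shares. Among models at or above the median level of all features, 52 of 357 stand-alone models were higher (14.6%) and 42 lower (11.8%), and 18 of 243 sharing models were higher (7.41%) and 23 lower (9.47%), against 10.2% and 10.8% of all features at that level.

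**Figure D2:**
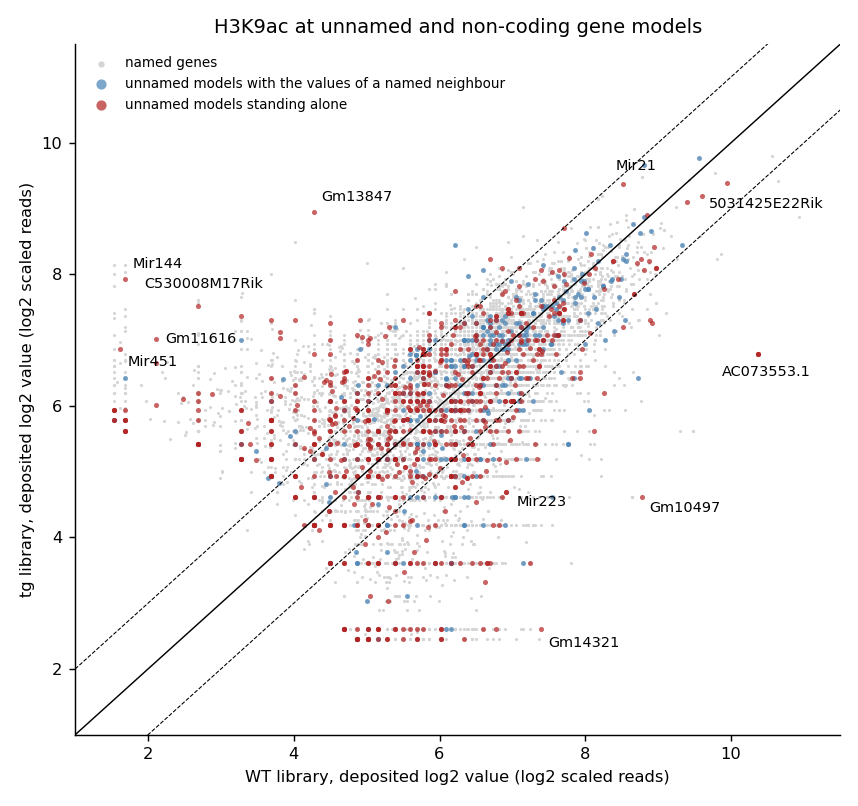
Deposited log2 value of each gene in the tg library (y axis) against the WT library (x axis), for named genes (grey), unnamed models with the values of a named neighbour (blue) and stand-alone models (red). The solid line is equality and the dashed lines are 2-fold. The blue points lie closer to the diagonal and the red points scatter more widely (standard deviation of the log2 ratio 1.47 against 1.05).

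Standing alone in the table did not always mean a signal of its own. Of the 802 stand-alone models with recovered reads, 216 had the counts of a probe of a named gene within 100000 bp, where 1 of the pair had a single probe. The match was made in each library separately, so both counts need not come from the same probe. Among the 586 without such a match, 131 were higher (22.4%) and 106 lower (18.1%), against 16.5% and 15.8% of all features. No match was looked for where both had several probes or where the named gene's reads were not recovered. The 586 therefore include models that may share a signal, such as E130114P18Rik with Nfia (below). Of all 819, 271 overlapped a named gene of the table and 88 had no named gene within 100000 bp. Very long models cover many genes: Gm20388 spans chr8:119910841-124345722 with 75 probes and had a log2 ratio of 0.30. The current RefSeq annotation matched 885 of the 1196 models, 397 of them under a descriptive gene symbol, and of these 83 were higher (20.9%) and 54 lower (13.6%). By RefSeq biotype, 90 of 488 protein-coding models were higher and 78 lower, and 56 of 323 long non-coding models were higher and 57 lower.

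Among the 39 microRNA rows, 3 passed 2-fold on the higher side and 8 on the lower side (7.69% and 20.5%, against 16.5% and 15.8% of all features), and the median log2 ratio was -0.53. The interval lay below 1 for 13 of the 39 (33.3%) and above 1 for 3 (7.69%), against 12.7% and 12.8% of all features with recovered reads. Of these 13 rows 4 had the values of a named gene and 9 stood alone. Among the 9 were Mir1907, Mir5135 and Mir615, which had the counts of a named gene's probe. Mir615 and Mir219-1 each make up 2 of the 13 rows, so the rows are not independent. Those past 2-fold on the higher side were Mir144, Mir451 and Mir196b. The lower ones were Mir223, Mir1907, Mir5130, Mir5135, Mir1932, Mir574 and Mir219-1, which has 2 rows with the same values.

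Mir144 (chr11:78073005-78073070, 1 probe) had 1 read in WT and 40 in tg, 3.23 and 244 scaled reads, a 75.7-fold difference with an interval of 12.8 to 3062. Mir451 (chr11:78073170-78073241), named Mir451a in RefSeq and lying beside Mir144 in the same primary transcript, had 0 and 1 reads at its 2 probes in WT and 9 and 40 in tg. The summed ratio was 92.7 (15.9 to 3734), while the deposited log2 ratio, which weighs both probes alike, was 5.24. The taller Mir451 probe had the counts of Mir144, so the pair is not independent. Both products are known to act in red cell maturation, where miR-144-3p and miR-451a carry the unrelated seeds printed above. On the list of erythroid microRNA genes, 3 of 10 had a row and 2 were beyond 2-fold higher. The remaining one, 2210403K04Rik, the host gene of Mir22, had 11 WT reads and 5 tg reads, 0.860-fold with an interval of 0.234 to 2.68, and the counts of a probe of Tlcd2.

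Mir223 (chrX:96242817-96242926) and its host transcript F630028O10Rik (chrX:96239942-96243636) had identical values at 2 probes, with 13 and 107 reads in WT and 2 and 9 in tg. The level was 388 scaled WT reads and 67.2 scaled tg reads, 5.77-fold lower (3.11 to 11.9). Of the 24 unnamed models on chromosome X, these included, 9 were beyond 2-fold lower (37.5%) and 4 higher (16.7%), against 15.8% and 16.5% of all features. Their median log2 ratio was -0.63, at a low median level of 27.2 scaled reads. The sex of the animals is not given, and its part in these values was not tested. miR-223 restrains granulocyte expansion and is among the most abundant microRNAs of neutrophils. The other myeloid microRNA genes with a row did not pass 2-fold. Mir142 (chr11:87756864-87756927) and the overlapping A430104N18Rik had 155 WT reads and 45 tg reads, 1.82-fold lower (1.30 to 2.60). Mir21 (chr11:86584067-86584158), Mir21a in RefSeq, had 113 and 108 reads, 1.81-fold higher (1.38 to 2.37), which were also the counts of a probe of Vmp1, in whose transcribed region Mir21 lies. Of 16 genes on the myeloid microRNA list 3 had a row, so that 1 was lower and none higher beyond 2-fold, with Mir142 and Mir21 on opposite sides.

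Mir5130 (chr14:102982549-102982632), which overlaps Kctd12, had 86 WT reads and 8 tg reads, 5.68-fold lower (2.76 to 13.6). Mir5135 (chr12:76533134-76533212) had 50 and 6 reads, 4.41-fold lower (1.89 to 12.6), and these were the counts of a probe of Plekhg3. The other lower ones were Mir1907 with 31 and 2 reads (8.19-fold, 2.09 to 70.7), Mir1932 with 38 and 8 (2.51-fold, 1.15 to 6.23), Mir219-1 with 29 and 6 (2.56-fold, 1.04 to 7.53) and Mir574 with 20 and 4 (2.64-fold, 0.886 to 10.6). Mir1907 had the counts of a probe of Trps1, which it overlaps and whose log2 ratio was -3.46. Mir219-1 had the values of Ring1 and Mir574 those of Fam114a1, so these microRNA genes cannot be told apart from their neighbours. The interval of Mir574 included 1.

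Mir196b (chr6:52230081-52230165), which lies between HoxA genes that NUP98 fusions are known to activate, was the only stem cell or leukaemia microRNA gene of 27 listed with a row. It had 9 WT reads and 10 tg reads, 2.10-fold higher with an interval of 0.767 to 5.85 that included 1. Both counts also occur among those of the 4 probes of Hoxa9, which were 6, 9, 9 and 883 in WT and 9, 10, 14 and 294 in tg. Mir196b thus lay with the low probes of Hoxa9, and the tallest count of that gene was on the lower side in tg. Mir615, in the HoxC cluster, had 126 and 34 reads, 1.96-fold lower (1.33 to 2.95), with the counts of a Hoxc5 probe. Mirlet7i, a member of the let-7 family, had 129 and 47 reads and was 1.45-fold lower (1.03 to 2.07).

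**Figure D3:**
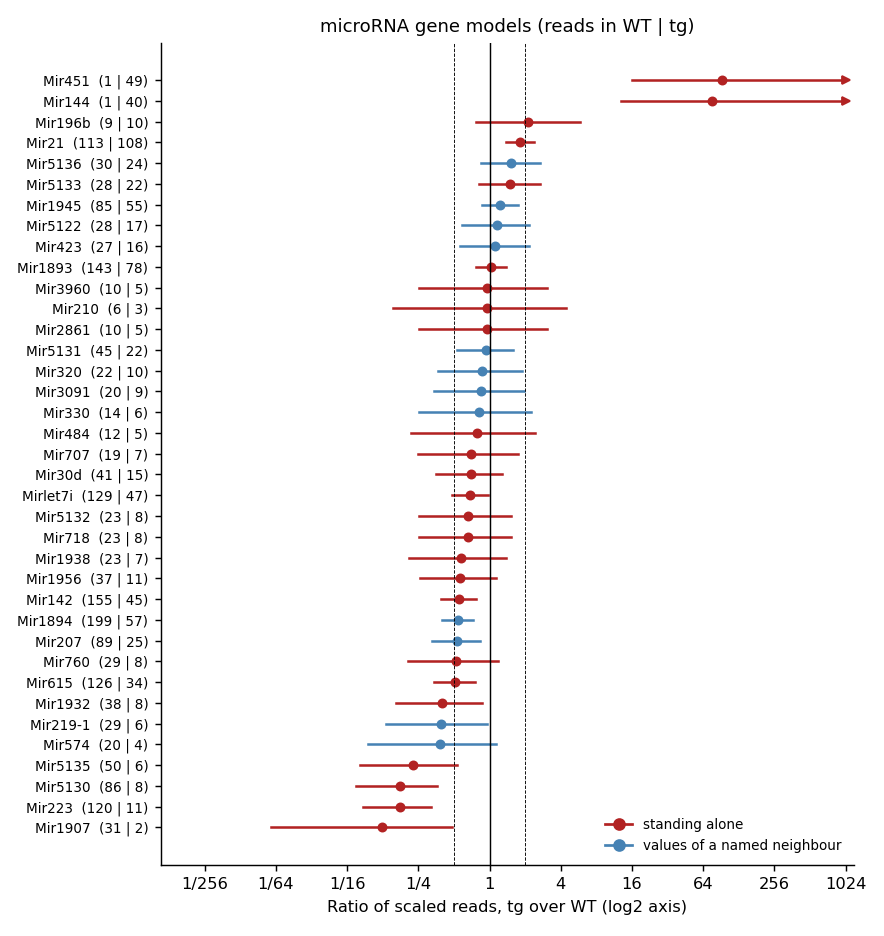
Ratio of scaled reads, tg over WT, for the 37 microRNA names (x axis, log2 scale) with 95% counting intervals (bars, arrows where they run off the axis), red where the model stands alone and blue where it has the values of a named neighbour. Reads in WT and tg stand beside each name, dashed lines mark 2-fold, and Mir144 and Mir451 lie far to the right of 1, with Mir1907, Mir223, Mir5130 and Mir5135 at the left end.

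Of 22 small nucleolar RNA models, 18 were within 2-fold, as were 6507 of all 9615 features and 3800 of the 4812 at or above the median level. Their median level was 155 scaled reads, so the share is close to that of features at high level. The standard deviation of their log2 ratios was 0.58, against 1.27 for all features and 1.0 for those at or above the median level. These genes guide the modification of ribosomal RNA, and many sit in ribosomal protein genes, whose values they had here: Snord14a with Rps13 had 60 and 31 reads (0.977-fold, 0.612 to 1.53), and Snora7a, with the counts of a probe of Rpl32, had 66 and 38 (1.09-fold, 0.711 to 1.65). Snora26 with 15 and 19 reads was 2.40-fold higher (1.15 to 5.07). Snord45c with 5 and 7 reads (2.65-fold, 0.723 to 10.6) and Snord1c with 17 and 18 (2.0-fold, 0.974 to 4.14) were past 2-fold with intervals that included 1. Snord13 with 22 and 5 reads was 2.33-fold lower (0.860 to 7.86), again including 1. Scarna2, a guide RNA of the Cajal body, had 17 and 19 reads (2.11-fold higher, 1.04 to 4.33), and Scarna13 had 4 and 8 (3.78-fold, 1.01 to 17.2). The Snhg hosts, non-coding genes whose introns hold small nucleolar RNAs, stayed within 2-fold: Snhg3 had 43 and 28 reads, Snhg12 19 and 9, and Snhg9 38 and 17.

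The stand-alone models with the largest ratio at or above the median level, beyond Mir144, were mainly long non-coding RNA genes and RIKEN models, some of which now have protein-coding gene names. They were picked by that ratio, so their direction is a description. Gm11616 (chr11:102375549-102377020), which RefSeq names Bloodlinc, a long non-coding RNA known from red cell development, had 0 and 2 reads at its 2 probes in WT and 14 and 32 in tg. This was 6.46 and 281 scaled reads, 43.5-fold higher (11.4 to 370). It lies 9346 bp from Slc4a1, the gene of the red cell anion exchanger band 3, which was 11-fold higher (5.93 to 22.4). Gm13847 (chr6:31605211-31743316), a long non-coding RNA gene, had 6 WT reads and 81 tg reads, 25.5-fold higher (11.2 to 71.6). Its nearest named gene of the table, Mkln1, was 88400 bp away with 0.79 as its deposited log2 ratio and 1.05-fold by summed reads (0.675 to 1.61), on the same side but much smaller than the log2 ratio of 4.67 at Gm13847.

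E130114P18Rik (chr4:97568133-97778078), a long non-coding RNA gene that overlaps Nfia, had 0, 9 and 10 WT reads at its 3 probes and 9, 22 and 50 tg reads, 8.06-fold higher (4.85 to 14.1). Nfia encodes a transcription factor known to favour erythroid over granulocytic fate. It had 5 and 10 reads in WT and 5 and 50 in tg, and the taller probe of Nfia had the counts of the tallest of E130114P18Rik. Gm10300 (chr4:132074697-132076992), in Epb41, the gene of the red cell membrane protein 4.1, had 0 and 21 reads in WT and 14 and 37 in tg. The summed reads gave 4.59-fold (2.71 to 8.04), while the deposited log2 ratio of 3.31 weighs both probes alike.

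C530008M17Rik (chr5:76657683-76873554), Cracd in RefSeq, a regulator of actin capping, had 2 and 30 reads (28.4-fold higher, 7.2 to 245). 8430419L09Rik, now Fam234b, had 4 and 26 (12.3-fold, 4.27 to 48.5). 2010011I20Rik, now Fam210b, whose mitochondrial product is known to take part in erythroid haem and iron metabolism, had 5 and 26 (9.84-fold, 3.72 to 32.8). A930018P22Rik had 3 and 27 (17-fold, 5.24 to 87.7) and lies 7415 bp from Cd59a, which encodes an inhibitor of complement lysis and had 3 and 26 reads. 2210016F16Rik had 7 and 25 (6.76-fold, 2.84 to 18.5).

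Some models with few reads had none in WT. These were chosen after their values were seen. Genes with 1 probe had at least 9 reads over both libraries, so a 1-probe model without WT reads could only appear as higher in tg. 1190007F08Rik, Smim1 in RefSeq, the gene of the Vel blood group antigen, had 0 WT reads and 10 tg reads. Set against a floor of 3 reads in the WT library this is 6.30-fold higher, while the counting interval began at 4.24-fold. Gm16516, now Map2k3os, had 0 and 9 reads.

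The lowest ratio at or above the median level was that of Gm14321 (chr2:167777467-167782569), a long non-coding RNA gene, with 52 WT reads and 1 tg reads. This is 168 and 6.11 scaled reads, 27.5-fold lower (4.72 to 1107). Cebpb, the gene of a granulocyte and macrophage transcription factor, lies 87049 bp away and had 7, 13 and 19 reads at its probes in WT and 0, 2 and 2 in tg, 5.15-fold lower (1.86 to 19.9). Gm10497 (chr17:44735845-44737612), inside Runx2, had 136 and 4 reads, 18-fold lower (6.86 to 66.9). The log2 ratio of Runx2, over its 8 probes, was 0.23, on the other side of equality. E130102H24Rik (chr4:101346531-101356248), a long non-coding RNA gene that overlaps Mir101a, had 47 and 2 reads, 12.4-fold lower (3.25 to 106).

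AC073553.1, AC073553.2 and AC073553.3 are clone models of under 100 bp each at chr12:113424645-113425227, between Ighm (RefSeq position) and Ighj4 of the immunoglobulin heavy chain locus, where antibody genes are rearranged in B cells. They had 1 set of values, 410 WT reads and 18 tg reads, 12.0-fold lower (7.52 to 20.5). Ighj4, a joining segment, had 124 and 4 reads (16.4-fold lower, 6.24 to 61.1). These 3 rows make up 3 of the 10 AC clone models that were at least 2-fold lower, of 32. On the list of B cell markers only 2 of 8 genes had a row, and neither was beyond 2-fold.

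Among the other lowest models, 5031439G07Rik had 36 and 4 reads (4.76-fold lower, 1.71 to 18.4). Gm13507 had 35 and 3 reads (6.17-fold lower, 1.94 to 31.3), counts found among those of the probes of Nr6a1. 1810021B22Rik had 33 and 3 (5.82-fold lower, 1.82 to 29.6), found among those of the probes of Trabd. In both cases the WT count was the named gene's higher one and the tg count its lower one, so 1 shared probe was not shown. 1700112E06Rik, now Lrmda and chosen after its values were seen, had 34 and 1 reads.

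**Figure D4:**
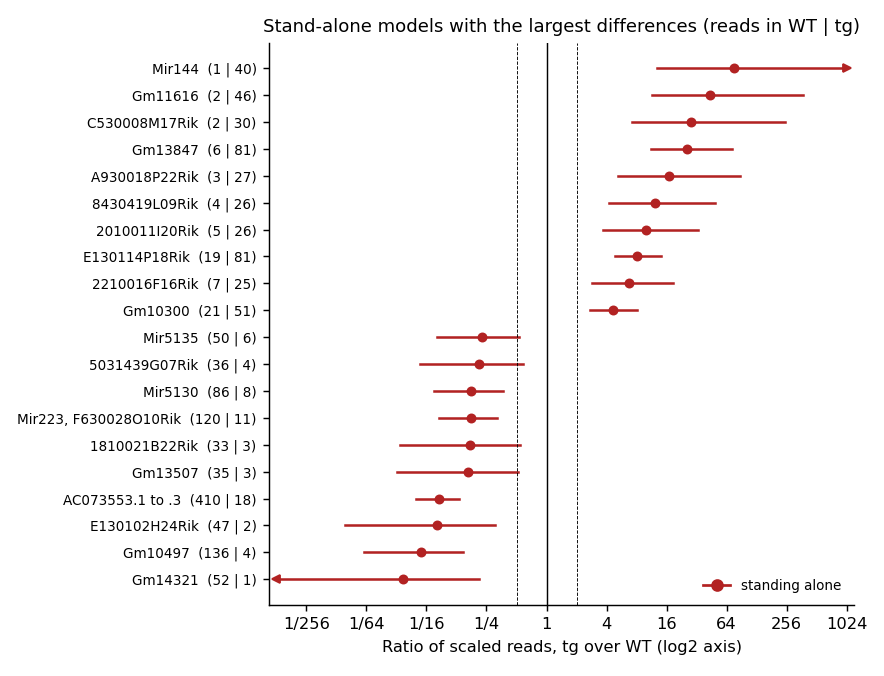
Ratio of scaled reads, tg over WT (x axis, log2 scale), with 95% counting intervals (bars, arrows where they run off the axis), for the 10 highest and the 10 lowest stand-alone models at or above the median level. Reads in WT and tg stand beside each name, dashed lines mark 2-fold, and ratios run from 4.59 (Gm10300) to 75.7 (Mir144) above 1 and from 4.41-fold (Mir5135) to 27.5-fold (Gm14321) below it.

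Promoter sequences, 250 bases before to 50 after the start in RefSeq (GRCm38.p6), were at hand for 670 of the 1196 models, in 781 windows. The promoters below are those of all long non-coding RNA genes among the 10 highest and the 10 lowest models that had an entry, and the first is that of the Mir223 host transcript. Capitals mark AGATAA, a letter run of the kind GATA factors bind, and GAAA followed by any pair of bases and GAAA again, a run of the kind interferon regulatory factors bind. Both were searched on both strands, so that the capitals show the run or its complement.
F630028O10Rik (chrX:96239676-96239975, plus strand): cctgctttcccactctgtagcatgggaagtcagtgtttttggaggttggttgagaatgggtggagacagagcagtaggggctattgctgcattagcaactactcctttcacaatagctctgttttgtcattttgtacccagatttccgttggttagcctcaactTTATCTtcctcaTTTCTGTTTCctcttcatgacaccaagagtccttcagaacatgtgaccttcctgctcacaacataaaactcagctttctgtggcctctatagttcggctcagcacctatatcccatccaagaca
Gm14321 (chr2:167777241-167777540, plus strand): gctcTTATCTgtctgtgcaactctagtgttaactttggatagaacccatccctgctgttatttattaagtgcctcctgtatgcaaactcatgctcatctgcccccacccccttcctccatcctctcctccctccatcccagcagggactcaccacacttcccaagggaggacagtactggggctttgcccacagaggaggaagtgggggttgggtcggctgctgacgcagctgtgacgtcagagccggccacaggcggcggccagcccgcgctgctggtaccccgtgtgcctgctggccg
E130102H24Rik (chr4:101356199-101356498, minus strand): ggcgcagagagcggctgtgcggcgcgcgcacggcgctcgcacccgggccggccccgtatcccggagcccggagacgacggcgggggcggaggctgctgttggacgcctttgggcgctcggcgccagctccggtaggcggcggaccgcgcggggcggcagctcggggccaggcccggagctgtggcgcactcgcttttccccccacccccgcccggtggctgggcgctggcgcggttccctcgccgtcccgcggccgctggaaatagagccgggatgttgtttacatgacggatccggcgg
1810021B22Rik (chr15:89075805-89076104, minus strand): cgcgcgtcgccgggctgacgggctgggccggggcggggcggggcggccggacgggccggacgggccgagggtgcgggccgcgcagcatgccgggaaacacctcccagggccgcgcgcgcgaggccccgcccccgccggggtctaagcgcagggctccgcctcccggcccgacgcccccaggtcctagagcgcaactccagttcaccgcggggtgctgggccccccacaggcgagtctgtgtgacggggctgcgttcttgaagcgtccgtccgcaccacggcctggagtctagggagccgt
Gm13847 (chr6:31665910-31666209, plus strand): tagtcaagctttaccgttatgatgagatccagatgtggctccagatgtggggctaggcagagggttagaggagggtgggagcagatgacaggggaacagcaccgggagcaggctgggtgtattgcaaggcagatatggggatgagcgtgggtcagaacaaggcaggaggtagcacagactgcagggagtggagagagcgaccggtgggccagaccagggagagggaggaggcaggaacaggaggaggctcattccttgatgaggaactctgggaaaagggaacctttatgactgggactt
E130114P18Rik (chr4:97584542-97584841, minus strand): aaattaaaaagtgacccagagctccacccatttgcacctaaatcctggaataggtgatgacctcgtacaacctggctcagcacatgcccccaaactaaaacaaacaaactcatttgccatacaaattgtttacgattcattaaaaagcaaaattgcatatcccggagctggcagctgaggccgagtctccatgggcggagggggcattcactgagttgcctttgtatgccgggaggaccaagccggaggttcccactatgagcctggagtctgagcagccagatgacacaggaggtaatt
The window of F630028O10Rik holds both, each on the other strand and without overlap. The window of Gm14321 holds AGATAA near its 5′ end, and the windows of the lower E130102H24Rik and 1810021B22Rik and of the higher Gm13847 and E130114P18Rik hold none of the letters searched. A match is a description of letters, not a bound site.

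AGATAA was in 11.2% of 32851 promoter windows of all RefSeq genes. In stand-alone models at or above the median level it was in 5 of 39 windows of models higher in tg (12.8%), 3 of 29 of those lower (10.3%) and 9 of 207 of those within 2-fold (4.35%). The interferon-type run was in 3.44% of all windows, in 0 of 39 for higher models and in 2 of 29 for lower ones (6.90%). CCGGAAGT, a run of the kind ETS factors bind, was in 10.1% of the unnamed models' windows and in 3.89% of all. CCAAT was in 35.1% against 37.4%, and TATAAA, the TATA box, in 6.66% against 13.6%. Their windows were also richer in G and C, with a median of 60.7% against 52.7%, and held a median of 20 CpG dinucleotides against 7, and all RefSeq genes include many that have no row in the table.

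Of the 8 highest levels, those of the AC073553 clones and of Mir142 with A430104N18Rik, described above, matched no named gene's counts, and the other 6 had the counts of a named gene's probe. Mir21, among these 6, is also described above. 5031425E22Rik, which has the counts of a probe of Mll5 (Kmt2e), had 306 and 110 reads, 1.47-fold lower (1.18 to 1.85). Gm13476, Zeb2os in RefSeq, which runs antisense to Zeb2, had 240 and 96 reads and the counts of Zeb2's tallest probe, 1.32-fold lower (1.04 to 1.69). Gm11999 with 209 and 90 reads had those of Ikzf1, the gene of the lymphoid factor Ikaros (1.23-fold lower, 0.955 to 1.59). 0610039K10Rik with 153 and 56 reads had those of Serinc3 (1.44-fold lower, 1.06 to 2.0). Mir1893 had 143 and 78 reads and those of an Epc1 probe (1.03-fold higher, 0.773 to 1.37). Apart from the AC073553 clones, the highest models thus lay within 2-fold of equality, and for models with a neighbour's counts it cannot be told apart to which of the pair the reads belong.

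Among models with exactly the values of a named gene, those with the largest difference at or above the median level stood for genes of several functions. Gm17305 had the values of Chd3, a chromatin remodeller subunit, with 3 WT reads and 21 tg reads (13.2-fold higher, 3.95 to 69.3). AC109138.1 had those of Clcf1, a cytokine gene, with 44 and 2 (11.6-fold lower, 3.03 to 99.0). Gm10840 had those of Limd2 with 58 and 4 (7.67-fold lower, 2.84 to 29.1), and 9030625A04Rik those of Ccdc122 with 37 and 3 (6.52-fold lower, 2.06 to 33.1). Gm11131 had those of H2-Q4, a non-classical MHC class I gene, with 67 and 7 (5.06-fold lower, 2.33 to 13.1). AC126679.1, on another chromosome, had those of Itprip with the same counts.

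Interferon-related models were of interest because Mx-Cre is switched on by interferon. Of 17 on the list 3 had a row, none was higher beyond 2-fold, and 1 was lower. A630001G21Rik, next to the Sp100 family on chromosome 1, had 15 and 35 WT reads at its 2 probes and 4 and 5 tg reads, 2.94-fold lower (1.43 to 6.79). C130026I21Rik had 48 and 20 reads in all (0.788-fold, 0.443 to 1.35) and A530032D15Rik 11 and 5 (0.860-fold, 0.234 to 2.68). The latter lies inside the former, and its counts are among those of the former's 4 probes, so these rows are not separate measurements. Of 5 listed MHC class I-like models 2 had a row, and both were lower. Gm7030 had 59 and 11 reads (2.84-fold lower, 1.48 to 5.99) and Gm6034 had 38 and 9 (2.23-fold lower, 1.06 to 5.25), and the latter had the counts of a BC023719 probe. Sequences of class I genes are much alike, so reads may have been placed at any of several copies.

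The value of a stand-alone model was set beside that of the nearest named gene with different values. Within 100000 bp there were 731 such pairs, in which the model and the gene lay on the same side of equality in 481 (65.8%), and Spearman's rho of their log2 ratios was 0.40. Pairs that overlapped were on the same side in 203 of 271 (74.9%, rho 0.59), and pairs more than 20000 bp apart in 76 of 142 (53.5%, rho 0.26). Without models that had the counts of a named gene's probe, 314 of 515 were on the same side (61.0%, rho 0.31). These 515 include models for which no match could be looked for. Of 148 models at least 2-fold higher, 63 had a neighbour that was also 2-fold higher, 4 a neighbour that was lower and 81 one within 2-fold. Of 127 models at least 2-fold lower, 39 had a lower neighbour, 10 a higher one and 78 one within 2-fold. Over all features 16.5% were at least 2-fold higher and 15.8% lower. No such shares are given here for pairs of named genes, so these values do not set the unnamed models apart. Sides were taken from the deposited log2 ratios, which weigh all probes of a gene alike and can differ from summed reads. Mll5, for example, had a deposited log2 ratio of 0.79 but was 0.716-fold by summed reads. Points in these pairs can share a library, a probe and a named gene, so rho is given without a test.

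**Figure D5:**
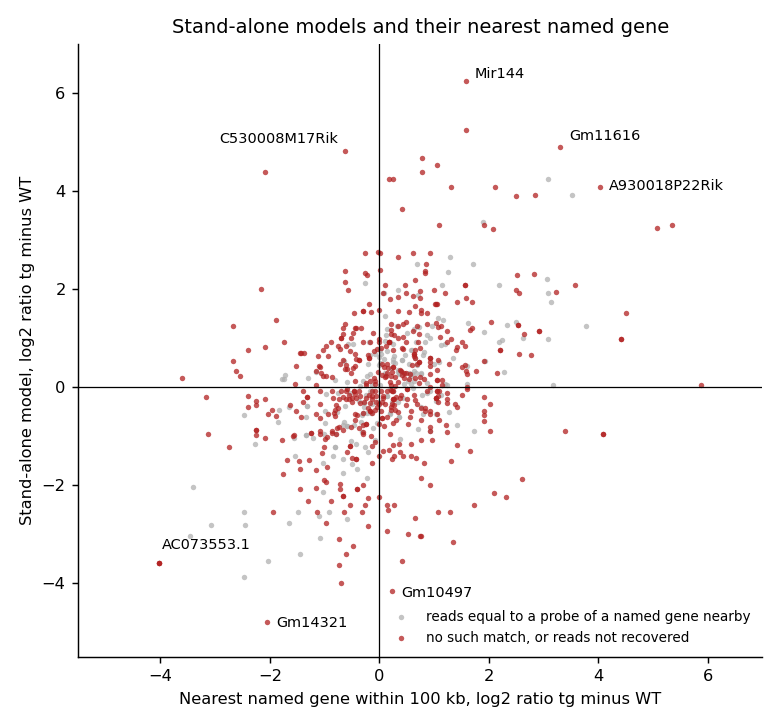
Log2 ratio, tg minus WT, of stand-alone models (y axis) against that of the nearest named gene within 100000 bp (x axis), grey where the model's reads equal a probe of a named gene nearby and red otherwise. Both values have the same sign in 481 of 731 cases (65.8%), and Mir144, C530008M17Rik and Gm10497 are labelled among the models far from their neighbour's value.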

How the data were processed

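H3K9ac ChIP-seq was compared between 1 WT and 1 tg library. The authors deposited log2 values that are, per the file headers, means over each gene's probes, together with their standard deviation and the number of probes. The submitters' processing notes name CASAVA 1.8.2, FastQC, BWA and SAMtools, with mm10 (GRCm38) as the build. The sources used here do not say how probes were placed, whether duplicates were removed or which program made the table.

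Linear values were whole multiples of 1 read, within 0.01 of a read, with 0 reads entered as 0.9 of a read. Scaling was taken to be to 1000000. Both values together gave the reads per probe of 9492 of 9615 genes, those with up to 4 probes, and 1-probe genes had at least 9 reads over both libraries. The solver and the intervals were tested on simulated data. Ratios are of reads summed over probes, with exact conditional binomial (Clopper-Pearson) 95% intervals, and counts of higher or lower models use a 2-fold rule on the deposited log2 difference. The 2 IgG libraries were not used.

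The members and the lists were chosen with earlier results of these data known. Named were the 10 highest and the 10 lowest stand-alone models by log2 ratio, at or above the median level, the 8 with the highest level, small RNA genes beyond 2-fold, on a list or with a printed sequence, list members with a row, and the 6 sharing models with the largest ratio. Small RNA genes named beyond this rule, and models named for low reads, were chosen after their values were seen. Names, biotypes and sequences are from RefSeq (GRCm38.p6), matched by symbol or synonym at an overlapping position. Alternatives were the window, the identity rule, counting sets once, summed reads, 1-probe models, level, chromosome, centring and the fold. Python 3.11.15, pandas 2.3.3, NumPy 2.4.6, SciPy 1.17.1 and Matplotlib 3.10.9 were used.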

Additional observations from a re-analysis of the deposited data

How the results depend on the processing

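No paired analysis was possible because there was 1 library per group, and for the same reason no replicate could be left out. The number of models at least 2-fold higher in tg fell from 213 to 70 when only models at or above the median level were kept, and to 108 at 3-fold. The number lower fell from 205 to 65 and to 113. A stricter fold can only lower the counts. The narrower set did not account for all of the fall at or above the median level. The share higher went from 17.8% to 11.7% there and the share lower from 17.1% to 10.8%. Over all features these shares went from 16.5% to 10.2% and from 15.8% to 10.8%. Counting sets once, summed reads, 1-probe models, stand-alone models, leaving out chromosome X, and centring kept both counts within 1.5 times, as did counting intervals that leave out 1, an alternative chosen after seeing the data. The number of stand-alone models stayed at 819 with a window 10 times narrower and was 814 with one 10 times wider. The nearest named gene with the same values lay at most 1015 bp away, so the narrower window could not change this number. The share of models on the same side as their neighbour went from 65.8% to 61.0% without models that had the counts of a named gene's probe, also chosen after seeing the data. Of 103 named folds only that of Gm10300 moved beyond its counting interval between summed reads and deposited values. Low read counts, with derived totals of 309649 and 163712 reads, limit every single ratio, and the spread between animals was not measured.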
